A study of Mus musculus with 6 samples.

Results

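The genes described here are 43 complement and coagulation genes of the mouse liver, found in the deposited table by their symbols among 21956 genes. All 43 were found, and all 43 passed the filter on low counts that left 13197 genes for testing. They were split by the cells known to make the proteins and by pathway: 4 genes of macrophage C1q and properdin, 19 genes of hepatocyte complement, and 20 genes of coagulation and fibrinolysis. Messenger RNA came from 6 livers, labelled as biological replicates. The 3 knockout mice were Stingfl/fl Cdh5-Cre+, so that floxed Sting1, which encodes an adaptor for the sensing of cytosolic DNA, is deleted where the endothelial Cdh5 promoter has driven Cre. The 3 control mice were Stingfl/fl Cdh5-Cre- littermates with the same floxed alleles and no Cre. Both groups ate chow until 8 weeks of age and then CDAHFD, a choline-free high-fat diet of defined amino acids that produces steatohepatitis, for 10 weeks. Cre was present in the knockout group alone, so that an effect of Cre and that of the deletion cannot be told apart, and no group on normal chow was analysed here.

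Complement is a cascade of plasma proteins that tags microbes and debris and can puncture membranes. It is started by C1q with its proteases C1r and C1s (classical pathway), by mannose-binding lectins with MASP proteases (lectin pathway), or by slow turnover of C3 that factor B and properdin amplify (alternative pathway), and it ends in the pore built from C5 to C9. Coagulation is a parallel protease cascade that ends with thrombin cutting fibrinogen to fibrin, held in check by antithrombin and protein C and undone by plasmin. Hepatocytes secrete most of these proteins, whereas C1q and properdin come chiefly from macrophages and other myeloid cells.

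The promoters of the fibrinogen chain genes and of F7 and F10 are shown because the fibrinogen genes, which lie side by side, had small differences between the groups, whereas F7 and F10, also neighbours, had the largest of the clotting genes. Each sequence holds the 250 bases before the RefSeq transcription start, written 5′ to 3′ on the strand of the gene, from GRCm38.p6; capitals mark matches to the letters TTGCNNAA (C/EBP), TTCNNNGAA (STAT) or CTGGGAA (the type II element of interleukin 6 response) on either strand. A match is a description of letters, not a binding site.
Fga, chr3:83025903-83026152, plus strand: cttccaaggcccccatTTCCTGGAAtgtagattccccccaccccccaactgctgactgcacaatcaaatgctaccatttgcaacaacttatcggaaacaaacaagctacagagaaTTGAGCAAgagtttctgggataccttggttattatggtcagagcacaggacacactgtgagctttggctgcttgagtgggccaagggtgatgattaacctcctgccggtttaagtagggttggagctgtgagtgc
Fgb, chr3:83049864-83050113, minus strand: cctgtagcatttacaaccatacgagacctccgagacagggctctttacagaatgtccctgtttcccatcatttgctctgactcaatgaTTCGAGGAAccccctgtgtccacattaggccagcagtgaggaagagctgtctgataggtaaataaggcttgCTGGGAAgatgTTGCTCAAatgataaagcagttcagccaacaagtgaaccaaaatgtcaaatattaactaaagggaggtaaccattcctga
Fgg, chr3:83007474-83007723, plus strand: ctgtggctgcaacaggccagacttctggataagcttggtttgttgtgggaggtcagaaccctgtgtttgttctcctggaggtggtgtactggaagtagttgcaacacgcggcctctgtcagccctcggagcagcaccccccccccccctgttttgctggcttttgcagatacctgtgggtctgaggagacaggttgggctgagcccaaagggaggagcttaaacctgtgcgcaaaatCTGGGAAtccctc
F7, chr8:13025784-13026033, plus strand: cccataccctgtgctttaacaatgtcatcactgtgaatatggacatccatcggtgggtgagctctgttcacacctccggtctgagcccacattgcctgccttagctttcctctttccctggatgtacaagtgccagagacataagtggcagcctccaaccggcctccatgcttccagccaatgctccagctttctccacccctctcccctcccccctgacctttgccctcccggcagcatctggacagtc
F10, chr8:13037058-13037307, plus strand: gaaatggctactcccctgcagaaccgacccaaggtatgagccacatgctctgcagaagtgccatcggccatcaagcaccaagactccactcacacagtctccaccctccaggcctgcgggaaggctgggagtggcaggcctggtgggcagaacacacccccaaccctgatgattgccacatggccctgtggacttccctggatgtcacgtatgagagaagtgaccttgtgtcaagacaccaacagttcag
Fgb held 1 match to each of the letter patterns, Fga 1 to the C/EBP and 1 to the STAT letters, and Fgg 1 to CTGGGAA at 13 bases before the start. F7 and F10 held none, which says only that these letters are not in these windows. RefSeq promoters were matched for 34 of the 43 genes. The C/EBP letters were in 23.5% of these 34 against 9.56% of all 32851 promoter windows of the same length, the STAT letters in 17.6% against 7.02%, and CTGGGAA in 14.7% against 9.1%. The units differ: a member gene was counted if any of its windows matched, whereas the share over all windows counted each window by itself. A gene with several windows had more opportunities to match, so these shares are not directly comparable. The STAT and type II letters can overlap, and in the promoters shown they did not.

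Total counts ranged from 16704663 to 21025466 per library. Sting1 was lower in every knockout library, at 5.64, 6.54 and 4.4 CPM against 12.1, 17.4 and 11 CPM in controls (log2 fold change -1.29, standard error 0.23, adjusted p = 0.357 in edgeR with Benjamini-Hochberg adjustment). The labels name sinusoidal endothelial cells beside whole liver, but hepatocyte transcripts dominated: 9 hepatocyte markers summed to 118704 ± 12801 TPM (SD, n = 3) in controls and 136714 ± 9587 TPM in knockouts, and 7 sinusoidal endothelial markers to 287 ± 27.7 and 314 ± 2.59 TPM. Control replicate 2 stood apart, with a TMM factor of 1.26 against 0.922 to 1.013 in the other libraries and with albumin at 6.91% of counts against 9.07% to 10.9%. Where leaving this library out moved a member's log2 fold change by over 1.5 times, the value without it is given beside the result. TMM, a scaling that assumes most genes do not differ, placed the median gene at a log2 fold change of 0.01, whereas total counts alone placed it at -0.21 and the deposited TPM at -0.20. In whole tissue, fewer cells of a type and less RNA per cell cannot be told apart.

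All 43 genes lay above 0 in the knockout and none passed the test. The median log2 fold change was 0.31 for macrophage C1q and properdin, 0.39 for hepatocyte complement and 0.39 for coagulation and fibrinolysis, against 0.01 over all genes tested, of which 51.2% lay above 0. In edgeR's quasi-likelihood test with Benjamini-Hochberg adjustment 0 of the 43 genes had an adjusted p under 0.05, as did 0% of all genes, and the smallest adjusted p of the 43 was 0.367. DESeq2 called 0 of the 43 and 0.92% of all genes with an adjusted p, and limma-voom called none. At an unadjusted p under 0.05 there were 9 of the 43, all higher, or 20.9%, against 3.75% of all genes. In TMM-scaled CPM every knockout library lay above every control library for 17 of the 43, or 39.5%, against 7.25% of all genes, and for none did every knockout library lie below, against 9.14% of all genes.

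**Figure D1:**
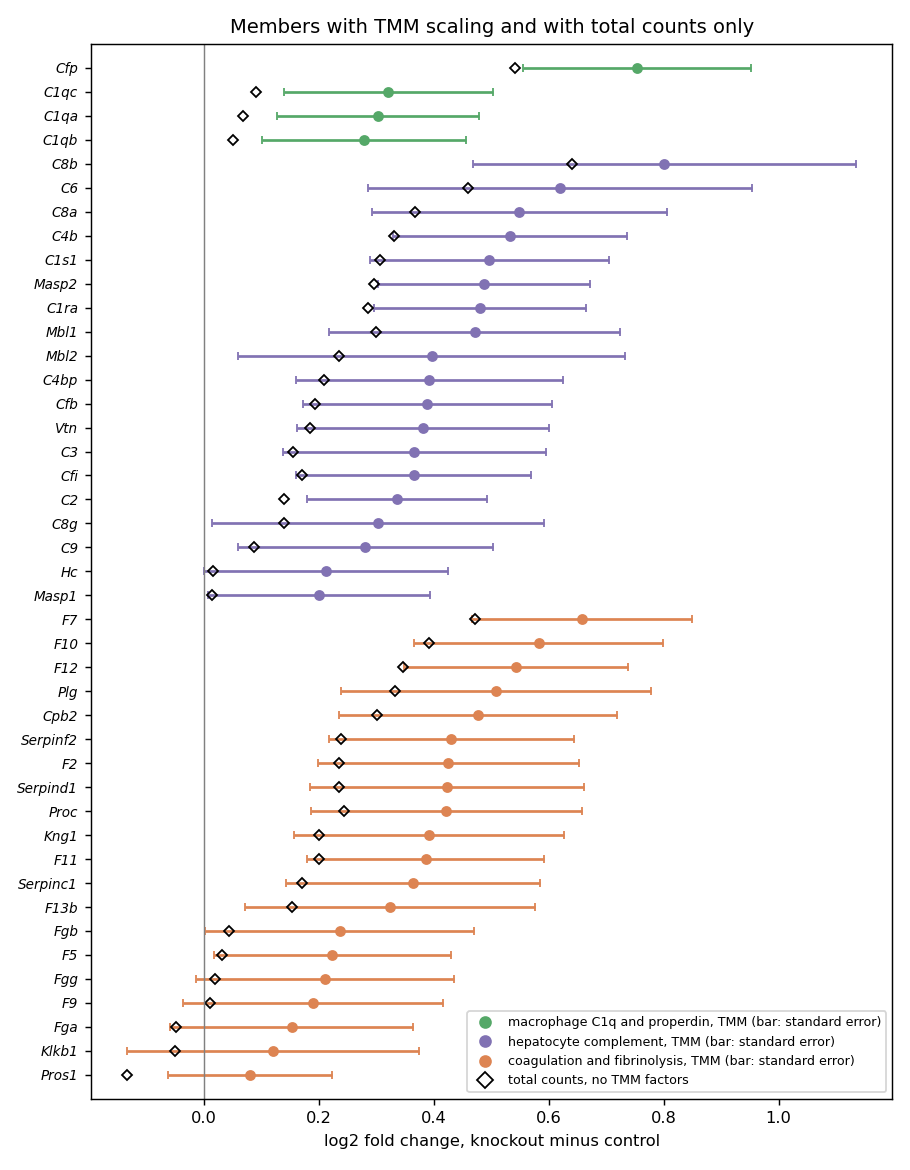
Log2 fold change, knockout minus control, of the 43 genes on the horizontal axis, with filled circles and standard error bars for the TMM-scaled edgeR fit and open diamonds for total counts without TMM factors. All circles lie right of 0, from 0.08 for Pros1 to 0.80 for C8b, and the diamonds of Fga, Klkb1 and Pros1 lie left of it.

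The size of these differences depended on the scale. With total counts alone 40 of the 43 lay above 0, with a median of 0.20, where 21.2% of all genes did; in log2(TPM + 1), 35 did, with a median of 0.15, where 19% of all genes did. Relative to the median of all genes in log2(TPM + 1), all 43 lay above 0, with a median of 0.35, where by construction 50% of all genes did. In TPM the groups separated upward for 11 of the 43 and downward for Fga, where 1.38% of all genes separated upward and 18.6% downward. Without control replicate 2, 41 of the 43 lay above 0, with a median of 0.25, where 52.3% of all genes did; without control replicate 3 all 43 did, with a median of 0.53. Control replicate 2 was the lowest of the 6 libraries for 37 of the 43 genes, or 86%, against 26.1% of all genes tested. Control replicate 3 lay above at least 1 knockout library for 25 of the 43, and for 10559 of the 13197 genes tested.

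**Figure D2:**
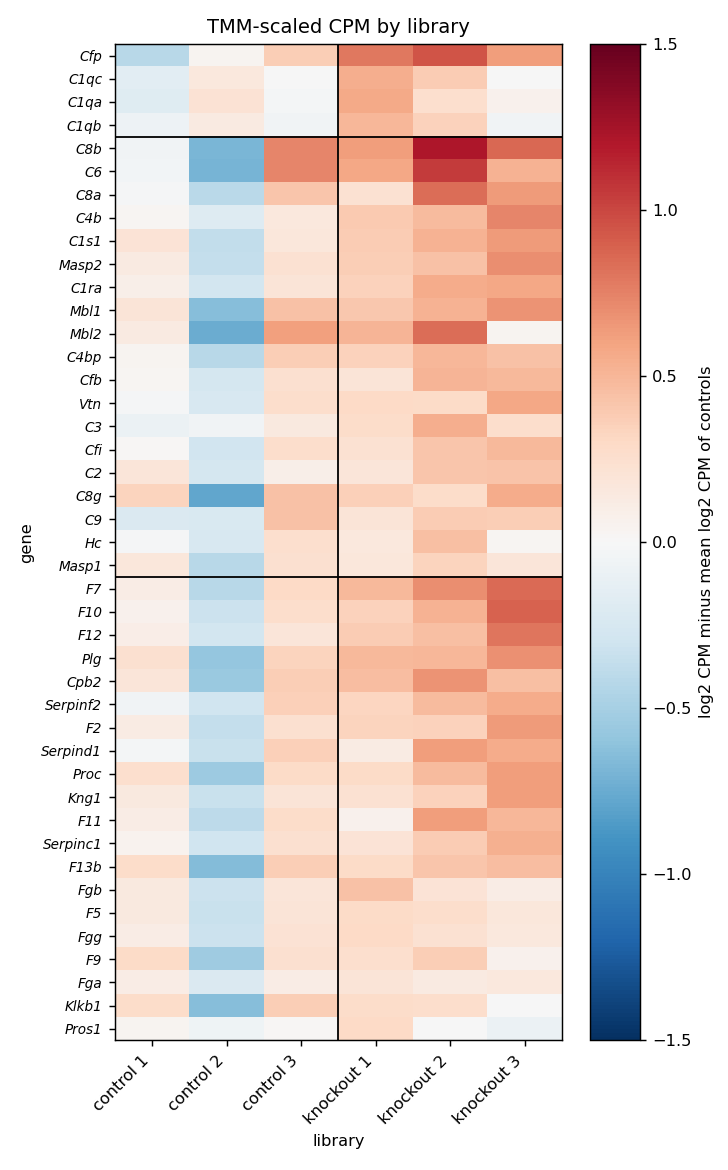
TMM-scaled CPM of each gene (rows) in each library (columns), as log2 CPM minus the mean log2 CPM of the 3 control libraries, with red for higher and blue for lower. Control replicate 2 is the lowest library in 37 of the 43 rows; the row order is that of the fold change within each of the groups of 4, 19 and 20 genes.

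The genes for the A, B and C chains of C1q, the recognition molecule of the classical pathway, overlapped between the groups. C1qa (ENSMUSG00000036887, GRCm38 chromosome 4, 136895917 to 136898803) stood at 105, 138 and 116 CPM in control replicates 1 to 3 and 177, 142 and 125 CPM in knockout replicates 1 to 3. C1qb, on the same strand nearby, stood at 165, 191 and 169 CPM in controls and 246, 221 and 168 CPM in knockouts. C1qc, which lies between them, stood at 146, 183 and 163 CPM and 239, 214 and 163 CPM. In each of the C1q genes knockout replicate 1 was the highest library, and knockout replicate 3 lay within the control range. The log2 fold changes were 0.30, 0.28 and 0.32 for C1qa, C1qb and C1qc, each with a standard error of 0.18, and the adjusted p in edgeR with Benjamini-Hochberg adjustment was 0.562, 0.592 and 0.558. Leaving out knockout replicate 1 gave 0.16, 0.16 and 0.20. In TPM, the per-length scale, the means were almost level between the groups, at 236 ± 76.1 and 239 ± 41.3 for C1qa (SD, n = 3), 326 ± 87.2 and 328 ± 61.3 for C1qb, and 278 ± 80.9 and 287 ± 53.7 for C1qc.

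The C1q chains, which assemble in equal numbers in the protein, kept a near-constant proportion at the RNA level. The TPM of C1qc over that of C1qb was 0.849 ± 0.04 (SD, n = 3) in controls and 0.875 ± 0.0024 in knockouts. That of C1qa over C1qb was 0.716 ± 0.045 and 0.733 ± 0.054. Both ratios overlapped between the groups. The TPM of C1qb over that of the macrophage receptor Adgre1 was 7.31, 5.8 and 5.89 in controls and 5.79, 5.34 and 5.12 in knockouts. Every knockout ratio lay below every control ratio, narrowly so for knockout replicate 1 and control replicate 2. Over Cd68, another macrophage gene, the ratio was 1.69 ± 0.24 and 1.86 ± 0.23 and overlapped. Of 14 Kupffer cell and macrophage markers 13 lay above 0 with a median log2 fold change of 0.52, 6 at an unadjusted p under 0.05 (42.9%, against 3.75% of all genes higher), and their summed TPM ranged from 2445 to 4032 in controls and from 2577 to 3803 in knockouts. Set against the mean log2 level of these 14 markers, the C1q chains overlapped between the groups. The differences were 0.43, 0.21 and -0.17 in control replicates 1 to 3 and -0.02, -0.24 and -0.21 in knockout replicates 1 to 3. No marker of that list was at 0 counts, and its part in the C1q values was not tested.

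Cfp, which encodes properdin, the stabiliser of the alternative pathway convertase, was the member with the smallest p. It stood at 22, 30.4 and 38.1 CPM in controls and 50.7, 56.6 and 45.4 CPM in knockouts. Every knockout library lay above every control library, in CPM and also in TPM, where control replicate 2 at 45.2 came close to knockout replicate 3 at 46.6. This gave a log2 fold change of 0.75 (standard error 0.20), a 1.69-fold higher level, with an adjusted p of 0.367 in edgeR and of 0.0707 in DESeq2. Leaving out each library in turn gave log2 fold changes from 0.58 to 0.96. Set against the mean log2 level of the 14 macrophage markers, Cfp overlapped between the groups, at -0.09 ± 0.07 (SD, n = 3) in controls and 0.09 ± 0.10 in knockouts. Neutrophils also make properdin, and 4 of 6 neutrophil markers lay above 0; their summed TPM was 31.4 to 63.3 in controls and 183, 37.9 and 30.5 in knockout replicates 1 to 3, and its part in the Cfp values was not tested.

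**Figure D3:**
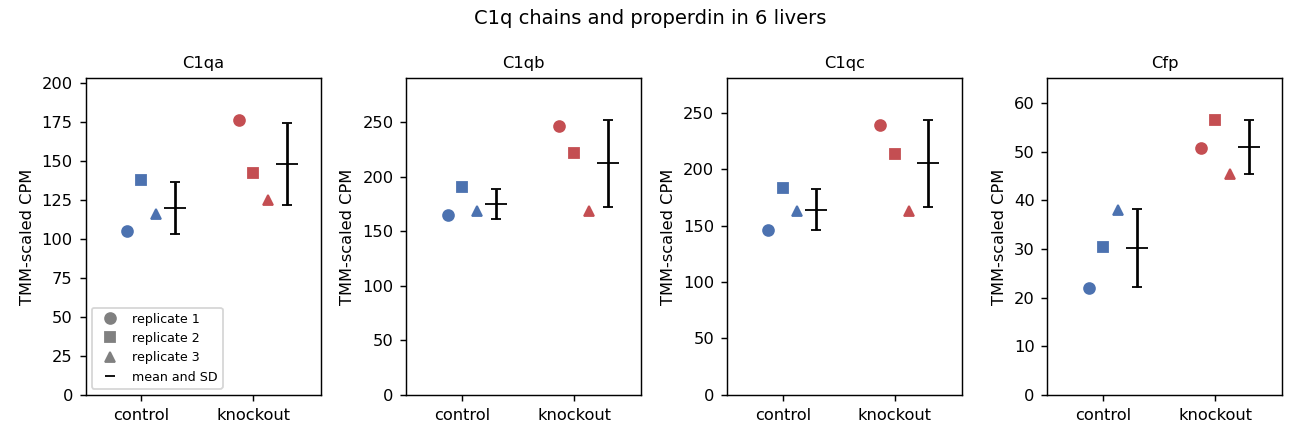
TMM-scaled CPM of C1qa, C1qb, C1qc and Cfp in each of the 6 livers (blue control, red knockout, marker shape by replicate), with black bars for the mean and SD of 3 libraries. The C1q chains overlap between the groups, whereas the lowest knockout value of Cfp, 45.4, lies above the highest control value, 38.1.

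C1ra and C1s1, the genes of the proteases that C1q activates, were among the members that separated the groups on both scales. C1ra (chromosome 6, 124512405 to 124523443) stood at 294, 227 and 316 CPM in controls and 351, 405 and 411 CPM in knockouts (log2 fold change 0.48, standard error 0.18). C1s1, 6.9 kb away, stood at 432, 289.6 and 421 CPM and 488, 538 and 586 CPM (0.50, standard error 0.21). Neither passed, with adjusted p values of 0.416 and 0.447 in edgeR with Benjamini-Hochberg adjustment. The nearly identical copies C1rb and C1s2 held at most 6 counts in any library. Without control replicate 2 the log2 fold changes were 0.36 and 0.34.

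Of the 4 lectin pathway genes only Masp2 separated the groups. Masp2, which encodes the protease that cleaves C4 and C2, stood at 107, 76.2 and 114 CPM in controls and 126, 132 and 159 CPM in knockouts, with no overlap (log2 fold change 0.49, standard error 0.18, adjusted p = 0.408 in edgeR). Mbl1, a mannose-binding lectin, stood at 131, 73.5 and 154 CPM and 151, 164 and 183 CPM, so that control replicate 3 lay within the knockout range (0.47, standard error 0.25). The second lectin, Mbl2, varied more, from 51.4 to 133 CPM in controls and from 88.7 to 155 CPM in knockouts (0.40, standard error 0.34). Masp1 was near level, at 0.20 with a standard error of 0.19, and at -0.08 in log2(TPM + 1). Mbl1, Mbl2 and Masp1 were at 0.22, 0.11 and 0.03 without control replicate 2. Masp2 overlaps Tardbp on the opposite strand in the annotation; 16 of the 43 genes overlap another annotated gene, and although the libraries were strand-specific, the sources used here do not say whether the counting used the strand.

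C3, on which all pathways converge, was the most abundant of the 43 per unit of length, at 3630 ± 529.7 TPM (SD, n = 3) in controls and 3879 ± 492 TPM in knockouts. It stood at 8518, 8723 and 10029.8 CPM in controls and 10946, 13265 and 10926 CPM in knockouts, which do not overlap, whereas the TPM values do (log2 fold change 0.37, standard error 0.23). C4b, the classical and lectin pathway partner of C2, stood at 919.5, 789 and 1008 CPM and 1179, 1256 and 1495 CPM. It separated the groups on both scales, with a log2 fold change of 0.53, a standard error of 0.20 and an adjusted p of 0.411 in edgeR and 0.0959 in DESeq2; its close copy C4a was not analysed here, so that reads of both may be counted together. C2 and Cfb, which encode the catalytic subunits of the classical and alternative convertases, lie 85 bp apart on chromosome 17, and an annotated gene on the same strand, Gm20547, overlaps both. C2 stood at 93.8, 69.1 and 88.3 CPM in controls and 94.2, 111 and 112 CPM in knockouts (0.34, standard error 0.16), with its groups narrowly apart, and its log2 fold change was 0.22 without control replicate 2. Cfb stood at 1142, 931 and 1323 CPM and 1281, 1592 and 1573 CPM and overlapped (0.39, standard error 0.22).

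The terminal components, which build the membrane pore, held the largest log2 fold change of the 43 and none of the 6 separated the groups. C8b stood at 129, 82.9 and 221 CPM in controls and 205, 307 and 241 CPM in knockouts (0.80, standard error 0.33, adjusted p = 0.447 in edgeR). C8a, 11.1 kb from it, stood at 374, 286 and 505 CPM and 444, 674 and 587 CPM (0.55, standard error 0.26). C6 stood at 130.2, 82.7 and 223 CPM and 201, 277 and 192 CPM (0.62, standard error 0.33). In each of these genes control replicate 2 was the lowest library and control replicate 3 lay above the lowest knockout library. Without control replicate 3 the log2 fold change of C8b was 1.25 and that of C6 was 1.07; without control replicate 2 they were 0.53 and 0.34. C8g, Hc (the mouse symbol for C5) and C9 had log2 fold changes of 0.30, 0.21 and 0.28. C8g was at 0.01 without control replicate 2, where its control level was 72.6 CPM against 158 and 169 CPM in the others, and Hc and C9 were at 0.11 and 0.17 without it. The TPM of C8a over C8b was 1.87 ± 0.38 (SD, n = 3) in controls and 1.46 ± 0.11 in knockouts, and the ratios overlapped.

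The regulators Cfi, C4bp and Vtn had similar log2 fold changes, 0.36, 0.39 and 0.38. Cfi encodes the protease that inactivates C3b and C4b, C4bp its cofactor, and Vtn vitronectin, which blocks pore insertion. Their levels were 567 ± 33.2 and 629.5 ± 59.7 TPM (SD, n = 3) for Cfi, 562 ± 68.9 and 627 ± 43.6 TPM for C4bp, and 1501 ± 122 and 1664 ± 192 TPM for Vtn, control first. All of these overlapped in TPM, and Vtn alone separated in TMM-scaled CPM, with control replicate 3 at 1579.6 CPM and the lowest knockout library at 1606 CPM. Cfi and C4bp were at 0.24 and 0.22 without control replicate 2.

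Fga, Fgb and Fgg, the fibrinogen chain genes whose promoters are printed above, were among the most abundant members and among the least different. Fga stood at 3695, 2949.8 and 3708 CPM in controls and 3910.2, 3758 and 3835 CPM in knockouts. In the deposited TPM it stood at 3255, 3430.2 and 3119.7 in controls and 3118, 3046 and 3066 in knockouts. Every knockout library thus lay above every control library on the scaled counts and below every control library in TPM. The log2 fold change of Fga was 0.15 (standard error 0.21), against -0.05 with total counts and -0.09 in log2(TPM + 1), so that its direction differed between scalings. Fgb stood at 3220.0, 2321 and 3302 CPM and 3934, 3348 and 3134 CPM (0.24, standard error 0.23), and Fgg at 2748, 2034 and 2964 CPM and 3131, 2984 and 2849 CPM (0.21, standard error 0.22). Control replicate 2 was the lowest library for all fibrinogen chains in CPM, and without it the log2 fold changes were 0.06, 0.10 and 0.07. The TPM of Fga over Fgg was 1.1 ± 0.08 (SD, n = 3) in controls and 1.04 ± 0.04 in knockouts, and that of Fgb over Fgg 0.51 ± 0.01 and 0.518 ± 0.04; the chains are joined in equal numbers in the protein.

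**Figure D4:**
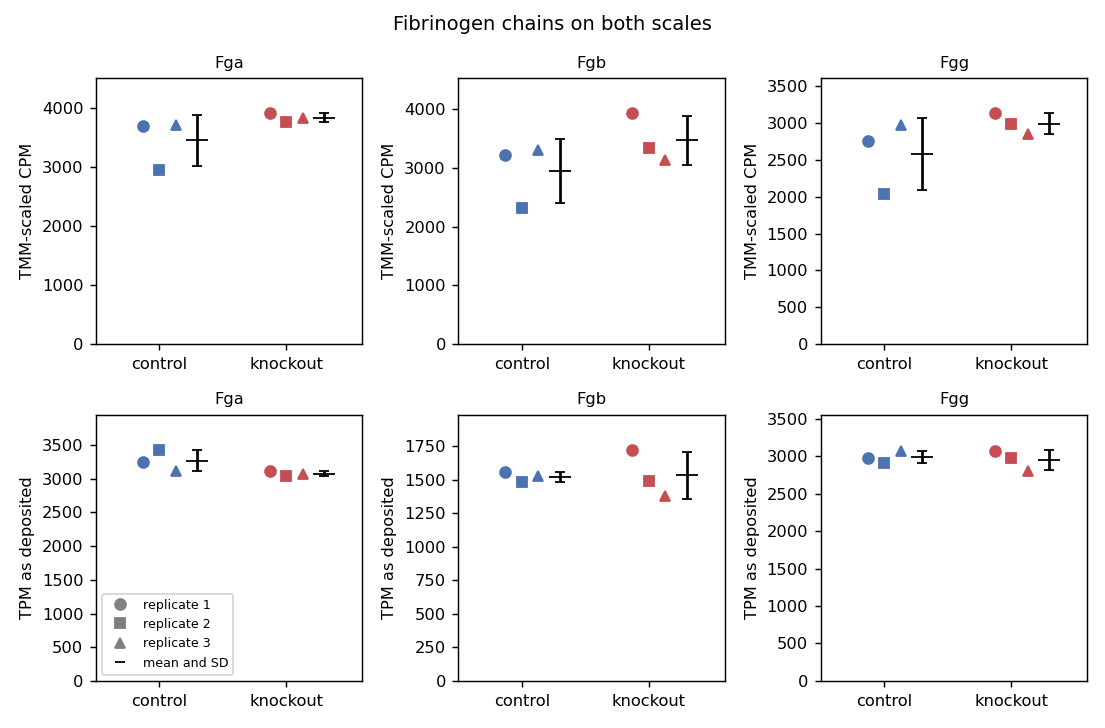
Fga, Fgb and Fgg in each liver as TMM-scaled CPM (upper row) and as deposited TPM (lower row), with black bars for the mean and SD of 3 libraries. Knockout Fga lies above all controls in the upper row (3758 to 3910.2 against at most 3708) and below all controls in the lower row (at most 3118 against at least 3119.7).

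The vitamin K-dependent procoagulant factors are proteases that need a carboxylated domain to bind membranes. The log2 fold changes of their 4 genes ran from 0.19 to 0.66, and differences between the genes were not tested. F7, which with tissue factor starts clotting, had the smallest p of the 20 clotting genes. F7 stood at 34, 23.6 and 38.7 CPM in controls and 44.1, 50.9 and 56.8 CPM in knockouts, with no overlap on either scale (log2 fold change 0.66, standard error 0.19, a 1.58-fold higher level, adjusted p = 0.373 in edgeR). F10, whose product converts prothrombin, lies 1.5 kb downstream of F7 and stood at 249.8, 192 and 288 CPM and 304, 345 and 443 CPM, again with no overlap (0.58, standard error 0.22, adjusted p = 0.405 in edgeR). F2, which encodes prothrombin, stood at 1054, 757 and 1148 CPM and 1220.5, 1236 and 1517 CPM (0.42, standard error 0.23). F9, the intrinsic pathway protease missing in haemophilia B, overlapped, at 212, 120.4 and 206 CPM in controls and 207, 225 and 182 CPM in knockouts (0.19, standard error 0.23), and at -0.02 without control replicate 2, where F2 was at 0.27. Leaving out each library in turn kept F7 between 0.49 and 0.82 and F10 between 0.42 and 0.73.

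Among the members, the vitamin K-dependent anticoagulant genes are Proc and Pros1. Proc, which encodes protein C, stood at 252, 146 and 258 CPM in controls and 258, 294 and 326 CPM in knockouts; the closest pair of libraries across the groups printed alike at 258 CPM, and TPM overlapped (0.42, standard error 0.24). Leaving out control replicate 2 gave 0.21 for Proc. Pros1, the gene of its cofactor protein S, had the lowest log2 fold change of the 43, 0.08 with a standard error of 0.14. Pros1 stood at 88, 81.3 and 86.4 CPM in controls and 105, 84.7 and 80.3 CPM in knockouts, and it lay at -0.13 with total counts.

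Of the 4 contact system genes F12 had the smallest p. F12, whose product starts the intrinsic pathway on charged surfaces, stood at 265, 205 and 280.4 CPM in controls and 324, 339 and 431 CPM in knockouts, with no overlap on either scale (log2 fold change 0.54, standard error 0.20, adjusted p = 0.395 in edgeR). F11, its substrate, stood at 51.7, 36.3 and 57.9 CPM and 50.1, 73.4 and 67.2 CPM (0.39, standard error 0.21), with knockout replicate 1 inside the control range. Klkb1, the prekallikrein gene 4.66 kb from F11, was near level at 0.12 with a standard error of 0.25, and at -0.13 without control replicate 2. Kng1, which encodes kininogen, was at 1917 ± 55.7 TPM (SD, n = 3) in controls and 2149 ± 305 TPM in knockouts (0.39, standard error 0.24), with its copy Kng2 at 0.30. F5, the cofactor of F10, and F13b, the carrier subunit of the cross-linking factor XIII, had log2 fold changes of 0.22 and 0.32 with standard errors of 0.21 and 0.25, and both overlapped. Without control replicate 2 the log2 fold changes were 0.22 for F11, 0.25 for Kng1, 0.08 for F5 and 0.07 for F13b.

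Genes of the inhibitors and of fibrinolysis lay close to the median of the clotting genes. Plg, which encodes plasminogen, stood at 1726, 979.5 and 1845 CPM in controls and 2051, 2069 and 2352 CPM in knockouts (0.51, standard error 0.27, adjusted p = 0.531 in edgeR). Cpb2, the carboxypeptidase that slows fibrinolysis, stood at 257, 153 and 292 CPM and 310.4, 359 and 308 CPM (0.48, standard error 0.24). Both Plg and Cpb2 separated the groups on both scales. Serpinf2, the gene of the main plasmin inhibitor, stood at 436, 366 and 576 CPM and 565, 626 and 665 CPM (0.43, standard error 0.21) and overlapped by 1 library. Serpind1 (heparin cofactor II) stood at 483, 389.6 and 629.5 CPM and 533, 757 and 724 CPM (0.42, standard error 0.24). Serpinc1, which encodes antithrombin, was at 2335 ± 118 TPM (SD, n = 3) in controls and 2585 ± 287 TPM in knockouts (0.36, standard error 0.22). Without control replicate 2 the log2 fold changes of Plg and Cpb2 were 0.28 and 0.25, and those of Serpind1 and Serpinc1 0.28 and 0.24.

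General hepatocyte markers had similar fold changes. Of 9 hepatocyte markers in the table, albumin among them, all 9 lay above 0, with a median log2 fold change of 0.36 against 0.39 for both hepatocyte groups of members, and edgeR called none, with none at an unadjusted p under 0.05. Without control replicate 2 the marker median was 0.20, against 0.27 for hepatocyte complement and 0.23 for coagulation. Per library, the mean log2 level of the 19 complement genes minus that of the 9 markers was -0.11, 0.04 and 0.01 in control replicates 1 to 3 and -0.14, 0.24 and -0.04 in knockout replicates 1 to 3. For the 20 clotting genes this difference was 0.0012, 0.09 and -0.03 in controls and -0.13, 0.12 and -0.05 in knockouts. The groups overlapped in both, with means of -0.02 and 0.02 for complement and 0.02 and -0.02 for clotting, control first. The part of the marker level in the members' values was not tested. The summed TPM of all 43 genes was 27492 ± 952 (SD, n = 3) in controls and 29704 ± 1336 in knockouts, with control replicate 3 at 28336 above knockout replicate 1 at 28164. Of 6 cholangiocyte markers all 6 lay below 0, 5 at an unadjusted p under 0.05 (7% of all genes were lower at that p), and their summed TPM was 626 to 2097 in controls and 285 to 636 in knockouts, highest in control replicate 2. Of 6 proliferation markers all 6 lay below 0, each at an unadjusted p under 0.05 (7% of all genes were lower at that p). Their median was -1.26, and -0.90 without control replicate 2. Their summed TPM was 38.5 to 110 in controls and 20 to 27.4 in knockouts, highest in control replicate 2. DESeq2 called 3 of the 6, against 0.92% of all genes. Of 7 T and natural killer cell markers 6 lay above 0, with a median of 0.42. The groups separated upward for 3 of the 7 (42.9%, against 7.25% of all genes). DESeq2 called Cd8a, where it called 0.92% of all genes. Centred on the 6 libraries, the mean log2 level of this list was 0.89, 0.28 and -0.13 in knockout replicates 1 to 3. In control replicates 1 to 3 it was -0.57, -0.10 and -0.37. The part of these markers in the members' values was not tested.

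**Figure D5:**
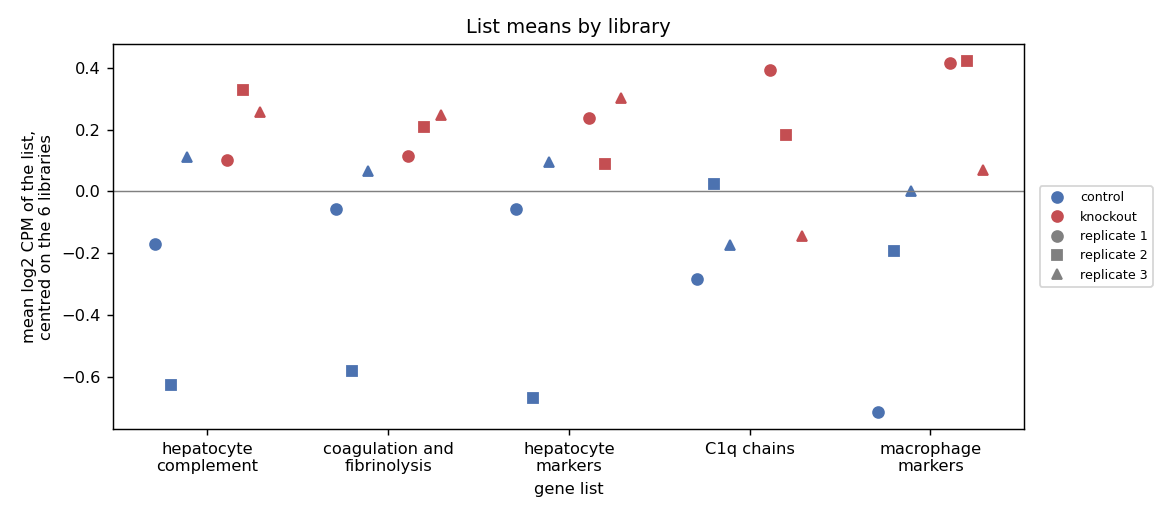
Mean log2 CPM of each gene list in each library, centred on the 6 libraries, for hepatocyte complement, coagulation and fibrinolysis, 9 hepatocyte markers, the C1q chains and 14 macrophage markers. Control replicate 2 is the lowest library for hepatocyte complement, coagulation and the hepatocyte markers (-0.63, -0.58 and -0.67), and the C1q chains overlap between the groups.

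Other genes of these pathways were taken from lists of 27 complement and 27 coagulation genes. Of 21 other complement genes tested, 19 lay above 0 with a median of 0.22, 2 had an unadjusted p under 0.05 (9.52%, against 3.75% of all genes higher), and edgeR and DESeq2 called none. Serping1, which encodes the C1 inhibitor, stood at 648, 554 and 717 CPM in controls and 875, 810.0 and 839 CPM in knockouts, without overlap (0.39, adjusted p = 0.49 in edgeR). Vsig4, the complement receptor of Kupffer cells, Fcna, a ficolin, and C1rl had log2 fold changes of 0.75, 0.73 and 0.45. Cfd, the protease that cleaves factor B, held at most 5 counts in a library.

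Other coagulation genes lay on both sides of 0. Of 26 tested, 14 lay above 0 and 12 below, with a median of 0.05, and at an unadjusted p under 0.05 there were 2 higher and 3 lower, against 3.75% and 7% of all genes. Plat, which encodes the endothelial tissue plasminogen activator, stood at 19.4, 34.2 and 11.8 CPM in controls and 10.6, 7.92 and 8.19 CPM in knockouts (log2 fold change -1.29, standard error 0.36); it did not pass in edgeR, at an adjusted p of 0.367, and passed in DESeq2 at 0.0406. Serpine2, an inhibitor of thrombin, was at -0.93 and did not pass in either tool. Control replicate 2 held the highest value of Plat and Serpine2, and without it Plat was at -0.80 and Serpine2 at -0.45. Fgl1, a hepatocyte fibrinogen-like protein, stood at 203, 195 and 212 CPM and 352, 311 and 224 CPM (0.54, adjusted p = 0.394 in edgeR). The vessel-wall and initiating genes F3, Tfpi, Thbd and Vwf had log2 fold changes of -0.23, -0.05, -0.40 and -0.06 with overlapping groups. Without control replicate 2 these were 0.06, 0.02, -0.06 and -0.11. Procr also overlapped and had the highest log2 fold change of the other coagulation genes, 0.70, or 1.12 without control replicate 2.

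Among transcription factors of hepatocytes, Cebpa and Cebpd, members of the family whose letters are marked in the promoters, lay in opposite directions. Cebpa stood at 149, 118 and 170.0 CPM in controls and 276, 206 and 348 CPM in knockouts (0.92, standard error 0.23), and Cebpd at 31.3, 20.8 and 23.4 CPM and 10.1, 15 and 13.2 CPM (-0.97, standard error 0.21). Both separated the groups, with adjusted p values of 0.367 and 0.357 in edgeR and 0.015 and 0.0177 in DESeq2. DESeq2 called 0.92% of all genes. Cebpb, of the same family, was at -0.32 and overlapped in CPM. In TPM every knockout library lay below every control library for Cebpb, where 18.6% of all genes separated downward. Hnf4a and Foxa3 had log2 fold changes of 0.40 and 0.37 and were not called by either tool. Of 12 such factors 9 lay above 0, with a median of 0.31. Of 18 genes listed as acute-phase, 17 lay above 0 with a median of 0.43. Most genes of this class, though not all, are secreted by hepatocytes under cytokine control, as several complement and fibrinogen genes are. Saa4, Saa2, Saa1 and Orm2 had log2 fold changes of 0.76, 0.97, 0.87 and 0.67. These 4 of the 18 had an unadjusted p under 0.05 in edgeR (22.2%, against 3.75% of all genes higher). DESeq2 called Saa4 and Saa2, where it called 0.92% of all genes, and edgeR called none.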

How the data were processed

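RNA sequencing of polyA RNA from 6 livers was deposited as 1 table of 21956 genes. The authors deposited estimated counts per gene, not normalized, and TPM values scaled to gene length and a fixed total. The submitters' processing notes list, without their roles, DESeq2 1.38.3, RSEM 1.3.3, HISAT2 2.2.1 and fastp 0.23.2, and the build GRCm38; for the annotation and the counting, not given in the sources used here. Of the count values 6.93% were not whole, and all were rounded. Positions came from GENCODE M21, also GRCm38.

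Knockout and control were compared with edgeR 4.0.16 (TMM, filterByExpr, robust quasi-likelihood test, Benjamini-Hochberg at 0.05 over all 13197 genes tested) in R 4.3.3. CPM are TMM-scaled; standard errors were derived from fold change and F. The labels call the libraries biological replicates; library pairs within a group differed by more than counting noise. With 3 against 3 an exact permutation p cannot go below 0.1. Alternatives used DESeq2 1.42.0, limma 3.58.1, other scalings and filters, a replicate block and each library left out; the fits were tested on simulated data.

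Members and lists were chosen with earlier results of these data known. Values in every library go to C1q, Cfp and up to 4 genes per pathway list. They also go to the 10 complement and 10 clotting genes with the smallest p. C3, Fga, Fgb, Fgg, F9, Pros1, the other members, Adgre1 and Cd68 were chosen after their values were seen. So were Cfd, Kng2, F3, Tfpi, Thbd, Vwf, Procr, Cebpb and the motifs. Promoters are from RefSeq. Lists get no test.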

Additional observations from a re-analysis of the deposited data

How the results depend on the processing

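The adjusted call of 0 among the 43 genes held under every alternative that had a test. Over all genes the count of calls, 0 in edgeR, was 127 in DESeq2, 5 with a replicate block and, with single libraries left out, 0 to 2 (2 when control replicate 2 or control replicate 3 was missing). The replicate numbers showed no clear pairing of the samples, though 3 libraries per group are few for such a check. Same-numbered knockout and control libraries deviated together with correlations of 0.115, -0.0068 and 0.133, against -0.281 to 0.178 for the other pairs. Knockout replicate 1 correlated best with control replicate 2, and the block changed no call among the 43 genes. The median log2 fold change of macrophage C1q and properdin was 0.078 with total counts, 0.058 in log2(TPM + 1) and 0.059 in log2(TPM + 0.1); the medians of hepatocyte complement and coagulation stayed above 0 and were 0.21 and 0.20 with total counts and 0.16 and 0.15 in log2(TPM + 1). Leaving out 1 library gave medians from 0.18 to 0.44 for this group, 0.27 to 0.58 for hepatocyte complement and 0.23 to 0.52 for coagulation. Signs turned for 8 genes in TPM and 3 with total counts. In log2(TPM + 1) the log2 fold change was -0.0794 for Masp1, -0.0292 for Hc, -0.086 for Fga, -0.016 for Fgg, -0.015 for F9, -0.17 for Pros1, -0.00356 for F5 and -0.0632 for Klkb1. In log2(TPM + 0.1) these were -0.0803, -0.0294, -0.0861, -0.016, -0.0151, -0.173, -0.00358 and -0.0639 for the same genes in that order. With total counts Fga was at -0.0494, Pros1 at -0.134 and Klkb1 at -0.0516. Leaving out single libraries gave -0.0233 to 0.335 for F9 and -0.128 to 0.303 for Klkb1, both lowest without control replicate 2, and -0.0423 to 0.159 for Pros1, lowest without knockout replicate 1. The cause was not tested. The fit relative to the median of all genes was chosen after seeing the data and had no test.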
